A study of Mus musculus with 6 samples.

Results

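The Schlafen family was examined in microglia of lupus-prone and control mice. Its members were taken by name, as the 7 rows of the count table whose Ensembl identifiers carry the mouse symbols Slfn1, Slfn2, Slfn3, Slfn4, Slfn5, Slfn8 and Slfn9, of 55401 rows in all. All 7 were found, and all 7 had enough counts to be tested. RNA sequencing compared 3 libraries from MRL/lpr mice with 3 libraries from MRL/mpj mice, each from untreated animals at 6 weeks of age. In MRL/lpr mice the death receptor gene Fas is mutated (lpr) on the MRL background, and they develop lupus. MRL/mpj mice share the background without that mutation. Microglia were taken from the brain by a Percoll gradient and magnetic selection for CD11b, a surface protein that other myeloid cells also carry, so the libraries are those of selected cells and not of microglia alone. The study's figure legend gives n = 3 for the mice of each strain, but the sources used here do not say how many animals went into a library. The p-values therefore measure the spread between these libraries, which may be technical.

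Schlafen genes are found in mammals as a cluster of related genes that interferons induce, mostly in immune cells. Their proteins share a core domain that can bind and cut transfer RNA, and the longest members also carry a helicase-like part. The family is known for holding T cells in quiescence, for steering the growth and differentiation of myeloid cells, and for restricting viruses. In the mouse, Slfn1 and Slfn2 are the short members, Slfn3 and Slfn4 are of intermediate length, and Slfn5, Slfn8 and Slfn9 are the long members. The annotated coding sequences followed that order, with 1011 bases for Slfn1, 1134 for Slfn2, 1806 for Slfn4, 1920 for Slfn3, 2652 for Slfn5 and 2730 each for Slfn8 and Slfn9.

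All 7 genes lie on chromosome 11 within 263.8 kb, from chr11:82951349 to chr11:83215154 of GRCm38, the build named in the submitters' processing notes. Slfn5 comes first (chr11:82951349-82964840, + strand). Slfn9 (chr11:82978390-82991830) and Slfn8 (chr11:83002158-83020810) follow on the - strand. Slfn2 (chr11:83065112-83070678), Slfn1 (chr11:83116849-83122670), Slfn4 (chr11:83175186-83190216) and Slfn3 (chr11:83191330-83215154) are on the + strand.

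Slfn8 and Slfn9 are neighbours with nearly the same coding sequence, and they are shown here because their counts moved in opposite directions. Over 2730 aligned coding bases, 2531 were the same, or 92.71%. The first 120 coding bases of each, from the GENCODE M21 transcripts, are printed 5′ to 3′, with the 16 bases that differ in capitals.
Slfn8: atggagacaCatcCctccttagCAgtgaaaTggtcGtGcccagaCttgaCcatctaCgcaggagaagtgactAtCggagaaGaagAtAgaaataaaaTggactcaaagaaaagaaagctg
Slfn9: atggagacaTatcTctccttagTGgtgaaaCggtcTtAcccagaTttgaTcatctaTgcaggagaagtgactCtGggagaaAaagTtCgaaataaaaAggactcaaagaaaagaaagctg
Slfn3 and Slfn4 were as close, with 92.72% identity over 1785 aligned coding bases, and the other pairs had between 63.19% and 77.02%. For each gene, only the annotated transcript with the longest coding part was compared. No stretch of 150 bases, the read length of the study, occurred unchanged in those of both Slfn8 and Slfn9. The same held for those of Slfn3 and Slfn4. Other annotated transcripts of these genes were not compared. These sequences are those of the reference strain C57BL/6J, and how far MRL mice differ from them was not analysed here. Counts of close relatives remain uncertain, because the counting tool is not given in the sources used here.

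The start regions of the genes are shown because most members moved together. Promoters came from RefSeq on GRCm38.p6, and the 250 bases before each start were searched on both strands for the interferon-stimulated response element (ISRE, GAAANNGAAA or TTTCNNTTTC), the gamma-activated site (GAS, TTCNNNGAA) and a core bound by ETS factors such as PU.1, a regulator of the macrophage lineage (AGGAAGT or ACTTCCT). The searched ISRE was present before the long members Slfn5, Slfn8 and Slfn9, and in 2.98% of 32851 promoters. For Slfn5, the RefSeq start lies inside the gene span given above, which begins at chr11:82951349. The 250 bases searched ended at chr11:82952101, so this match lies within that span. The bases before the first base of that span were not searched. In these stretches the match is in capitals.
Slfn5, chr11:82951912-82951991, + strand: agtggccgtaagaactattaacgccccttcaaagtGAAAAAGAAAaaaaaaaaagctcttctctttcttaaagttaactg
Slfn8, chr11:83020814-83020893, - strand: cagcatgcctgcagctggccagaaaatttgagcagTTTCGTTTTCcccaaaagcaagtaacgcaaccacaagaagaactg
Slfn9, chr11:82991831-82991910, - strand: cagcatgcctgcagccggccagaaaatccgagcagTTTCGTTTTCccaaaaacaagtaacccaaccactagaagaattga
The matches of Slfn8 and Slfn9 were the same 10 letters on the same strand, and the 250 bases before both starts had 85.12% identity over 242 aligned bases. The ETS core was present before the 4 shorter members Slfn1, Slfn2, Slfn3 and Slfn4, and in 7.69% of all promoters. These stretches have the core in capitals, and Slfn3 held another copy on the other strand close by.
Slfn1, chr11:83116711-83116787, + strand: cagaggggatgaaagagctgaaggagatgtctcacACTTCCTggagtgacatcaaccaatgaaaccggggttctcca
Slfn2, chr11:83065022-83065098, + strand: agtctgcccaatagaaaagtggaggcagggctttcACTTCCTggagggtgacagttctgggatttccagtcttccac
Slfn3, chr11:83191253-83191329, + strand: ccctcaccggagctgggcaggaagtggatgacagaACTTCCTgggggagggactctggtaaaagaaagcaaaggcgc
Slfn4, chr11:83175078-83175154, + strand: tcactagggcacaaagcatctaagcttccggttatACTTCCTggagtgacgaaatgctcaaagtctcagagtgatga
No GAS with these letters was found before any of the 7 genes, against 7.02% of all promoters. A match of letters describes the sequence and does not show binding.

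The libraries held between 45481609 and 49846634 counts. Some steps assumed that 1 read pair was worth 4 counts, in which case small counts rest on fewer pairs than their size gives. That value was not measured here, and some rows held counts of 1, 2 or 3. MRL/lpr replicate 3 stood apart, since the row CT010467.1 took 6.38% of its counts against 0.169% to 0.457% elsewhere. Fas was read as a check of the labels, but its count did not tell the strains apart. Fas had 282 to 461 counts in MRL/lpr and 362 to 432 counts in MRL/mpj. The log2 fold change was -0.06 (adjusted p = 0.887 by edgeR's quasi-likelihood test). The labels were therefore not checked by this gene, and how the mutation alters its count was not analysed here. All 12 microglia markers had counts in every library, with summed levels of 24160 to 26990 CPM (counts relative to library size, scaled by the TMM method) in MRL/lpr and 28730 to 29250 CPM in MRL/mpj, and Fcrls was the 1 marker called lower, at -1.76 on the log2 scale.

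The comparison between the strains asked how microglia of lupus mice differ from those of controls. Of the 7 members, 4 were called higher in MRL/lpr and 1 was called lower, where a call needed a change of 1 or more on the log2 scale in either direction and an adjusted p under 0.05 in edgeR's quasi-likelihood test (Benjamini-Hochberg over all genes). Among all 19554 genes tested, 4.67% were called higher and 3.66% lower. Slfn9, Slfn4, Slfn1 and Slfn2 were upregulated between 4.75-fold and 14.0-fold, Slfn8 was downregulated, Slfn5 rose by less than the fold-change minimum, and Slfn3 did not pass the test. By the adjusted p alone, 5 members were higher and 1 was lower, against 11.1% and 9.06% of all genes tested. The libraries of the strains did not overlap for 6 of the 7 members, and they did not overlap for 39% of all genes. The median log2 fold change of the members was 2.25, beside -0.01 over all genes tested.

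**Figure D1:**
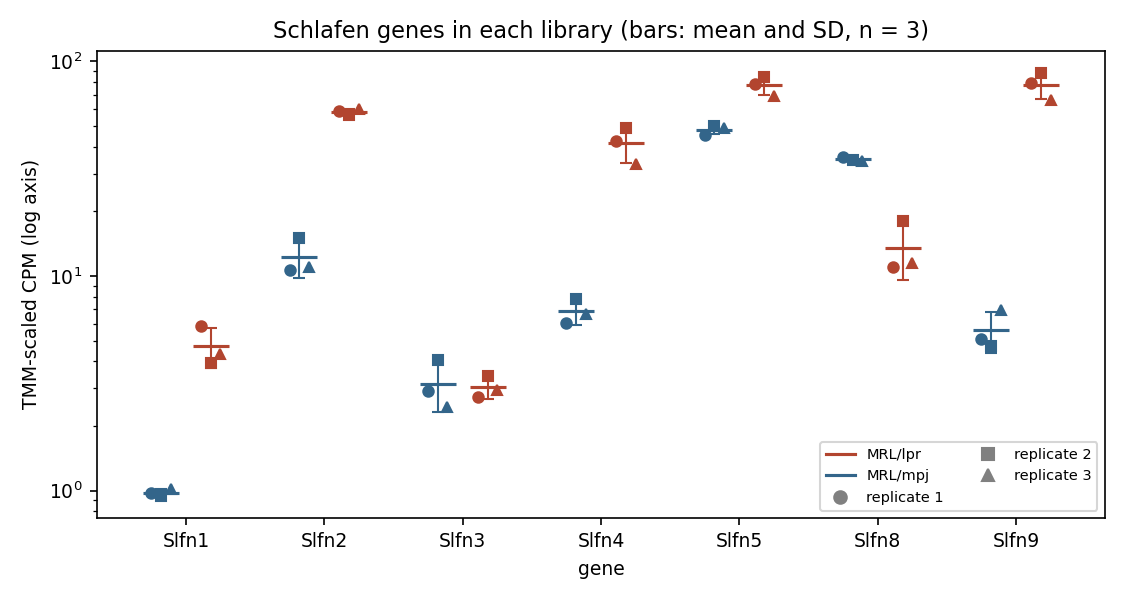
TMM-scaled CPM (log axis) of the 7 Schlafen genes in each of the 6 libraries. Symbols mark the replicates, and horizontal lines with bars give the mean and SD of the 3 libraries of a strain. Slfn9 lay between 66.1 and 88.4 CPM in MRL/lpr and between 4.70 and 6.96 CPM in MRL/mpj, while the libraries of Slfn3 overlapped.

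Slfn2, a short member without which T cells lose quiescence, gave 2751, 2651 and 2512 counts in MRL/lpr and 551, 755 and 574 counts in MRL/mpj. Every MRL/lpr library was more than 3 times above the highest MRL/mpj library. The level was 58.3 ± 1.901 CPM (SD, n = 3) in MRL/lpr and 12.3 ± 2.44 CPM (SD, n = 3) in MRL/mpj. The rise on the log2 scale was 2.25 (SE 0.14, adjusted p = 5.6e-06 by edgeR's quasi-likelihood test), or 4.75-fold. Among the called members it varied least within MRL/lpr, with a coefficient of variation of 3.26%.

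Slfn1, the other short member, known for slowing the growth of thymocytes when overexpressed, was the least abundant of the called genes. It had 274, 186 and 182 counts in MRL/lpr and 50, 47 and 53 counts in MRL/mpj, and replicate 1 was the highest of the MRL/lpr libraries. The groups did not overlap, at 4.71 ± 0.988 CPM (SD, n = 3) against 0.977 ± 0.0394 CPM (SD, n = 3). This was a 4.81-fold rise, or 2.27 on the log2 scale (SE 0.26, adjusted p = 0.000277 by edgeR's quasi-likelihood test). The intervals of the log2 fold changes of Slfn1 (1.68 to 2.85) and Slfn2 (1.94 to 2.56) overlapped.

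Slfn4, an intermediate member induced in activated macrophages and other myeloid cells, had 2010, 2299 and 1387 counts in MRL/lpr and 309, 392 and 347 counts in MRL/mpj. Replicate 3 was the lowest MRL/lpr library and still lay far above the MRL/mpj libraries. The level was 41.6 ± 7.89 CPM (SD, n = 3) against 6.84 ± 0.926 CPM (SD, n = 3). Slfn4 rose 6.08-fold, or by 2.60 on the log2 scale (SE 0.17, adjusted p = 6.87e-06 by edgeR's quasi-likelihood test).

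Slfn3, the close relative next to Slfn4, is known from T cells and from the differentiation of gut epithelium. It had 128, 161 and 123 counts in MRL/lpr and 150, 203 and 128 counts in MRL/mpj, and the groups overlapped. The change on the log2 scale was -0.05 (SE 0.26, adjusted p = 0.92 by edgeR's quasi-likelihood test), with a 95% interval from -0.64 to 0.53. A difference of the size seen in Slfn4 lay outside that interval. When the rows of Slfn3 and Slfn4 were summed, the log2 fold change was 2.16 (adjusted p = 2.14e-05 by the same edgeR test), and most of the summed counts came from Slfn4 in every library.

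Slfn5, a long member that acts on transcription in the interferon response, was abundant in both strains. It had 3710, 3976 and 2898 counts in MRL/lpr and 2345, 2488 and 2546 counts in MRL/mpj, and the groups did not overlap. The level was 77.6 ± 7.65 CPM (SD, n = 3) against 48.1 ± 2.19 CPM (SD, n = 3). The rise of 0.69 on the log2 scale (SE 0.09, adjusted p = 0.000694 by edgeR's quasi-likelihood test), or 1.61-fold, passed the p threshold and not the fold-change minimum. The antisense gene Slfn5os, which overlaps it, had at most 9 counts in any library.

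Slfn9 had the largest log2 fold change among the 7 members. It had 3744, 4163 and 2762 counts in MRL/lpr and 261, 235 and 362 counts in MRL/mpj, so that the lowest MRL/lpr library was more than 7 times above the highest MRL/mpj library. The level was 78.1 ± 11.3 CPM (SD, n = 3) against 5.58 ± 1.21 CPM (SD, n = 3). The rise on the log2 scale was 3.81 (SE 0.18, adjusted p = 1.6e-06 by edgeR's quasi-likelihood test), or 14.0-fold.

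Slfn8, whose first coding bases stand above beside those of Slfn9, moved the other way. It had 516, 847 and 482 counts in MRL/lpr and 1840, 1737 and 1797 counts in MRL/mpj, with replicate 2 the highest MRL/lpr library and the MRL/mpj libraries close together. The level was 13.5 ± 3.90 CPM (SD, n = 3) against 35.03 ± 0.679 CPM (SD, n = 3). The change on the log2 scale was -1.37 (SE 0.18, adjusted p = 0.000615 by edgeR's quasi-likelihood test), or 2.59-fold lower. Tested against the fold-change minimum itself with glmTreat of edgeR, the adjusted p was 0.18.

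The make-up of the pair was thus reversed between the strains. Slfn9 took 87.9%, 83.1% and 85.1% of the counts of both genes in the MRL/lpr libraries, with 95% Wilson intervals that ran from 82.0% to 88.8% over the 3 libraries. In the MRL/mpj libraries it took 12.4%, 11.9% and 16.8%, with intervals that ran from 10.6% to 18.4%. These intervals cover counting error only, and they are too narrow if 4 counts stand for 1 read pair. The log2 ratio of Slfn9 to Slfn8 was 2.56 ± 0.283 (SD, n = 3) in MRL/lpr and -2.67 ± 0.314 (SD, n = 3) in MRL/mpj. This difference of 5.23 had p = 0.1 in a two-sided exact permutation test, the smallest p that 3 libraries against 3 allow. The counts of both genes together were 4260, 5010 and 3244 in MRL/lpr and 2101, 1972 and 2159 in MRL/mpj. As a single row they rose by 1.17 on the log2 scale (SE 0.11, adjusted p = 9.26e-05 by edgeR's quasi-likelihood test), so the pair as a whole rose 2.26-fold.

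**Figure D2:**
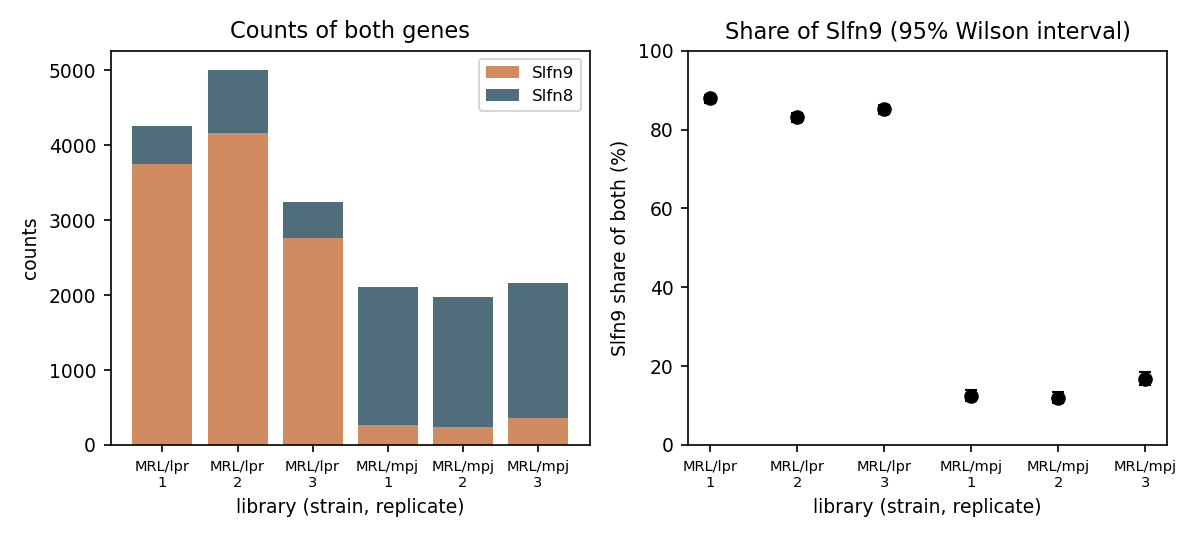
Left, counts of Slfn9 and Slfn8 stacked for each library. Right, the share of Slfn9 in the counts of both genes in percent, with 95% Wilson intervals, which lay between 83.1% and 87.9% in MRL/lpr and between 11.9% and 16.8% in MRL/mpj.

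The pseudogene Slfn10-ps (chr11:83028130-83040042, - strand) lies next to Slfn8 and is no member. It had 386, 376 and 226 counts in MRL/lpr and 32, 23 and 33 counts in MRL/mpj. Like Slfn9 it was higher in MRL/lpr, by 3.65 on the log2 scale (SE 0.28, adjusted p = 2.07e-05 by edgeR's quasi-likelihood test). Of the stretches of 150 bases in its longest transcript, 2.51% also occurred unchanged in the transcript compared for Slfn9. The row of Slfn10-ps is uncertain for that reason. With the counts of Slfn8, Slfn9 and Slfn10-ps in a single row, an alternative chosen after seeing the data, the log2 fold change was 1.26. Slfn14, which is known from platelets and red cell precursors, had at most 6 counts in any library, and Slfnl1 on chromosome 4 had at most 8 counts. Both, like Slfn5os, had too few counts to be tested.

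Levels of different genes were compared on the deposited FPKM values, which divide counts by gene length and depth. In MRL/lpr, Slfn2 had the highest level, with 30.65, 29.47 and 29.77 FPKM. Slfn9 followed with 11.64, 12.91 and 9.13 FPKM, Slfn5 with 10.87, 11.63 and 9.03 FPKM, and Slfn4 with 9.39, 10.73 and 6.90 FPKM. The ranges of these 3 genes overlapped, although the order from Slfn9 to Slfn5 to Slfn4 was kept in every library, and each was lowest in replicate 3. Slfn8 (2.32 to 3.83 FPKM) and Slfn1 (1.84 to 2.72 FPKM) also overlapped, and Slfn3 was lowest at 0.69 to 0.86 FPKM.

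The order of levels was different in MRL/mpj. Slfn8 had 8.13, 7.90 and 7.85 FPKM, Slfn5 had 6.70, 7.32 and 7.19 FPKM, and Slfn2 had 5.99, 8.44 and 6.17 FPKM. Slfn8 lay above Slfn5 in each library, while the range of Slfn2 overlapped with both. Slfn4 followed at 1.40 to 1.84 FPKM. Slfn9 (0.73 to 1.08 FPKM) and Slfn3 (0.67 to 1.10 FPKM) were not apart, and Slfn1 was lowest at 0.47 to 0.50 FPKM.

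Summed over the 7 genes, Schlafen levels were 68.3, 71.3 and 59.8 FPKM in MRL/lpr and 24.3, 27.8 and 25.0 FPKM in MRL/mpj. Slfn2 made up 41.3% to 49.8% of that sum in MRL/lpr and 24.7% to 30.4% in MRL/mpj. Slfn8 made up 3.43% to 5.37% in MRL/lpr and 28.4% to 33.5% in MRL/mpj, where it was the largest share in 2 of the 3 libraries. Slfn5, although higher in MRL/lpr in CPM, made up a smaller share of the family there, with 15.1% to 16.3% against 26.3% to 28.7%. In all 6 libraries the 7 genes held between 0.0111% and 0.0296% of the total counts.

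**Figure D3:**
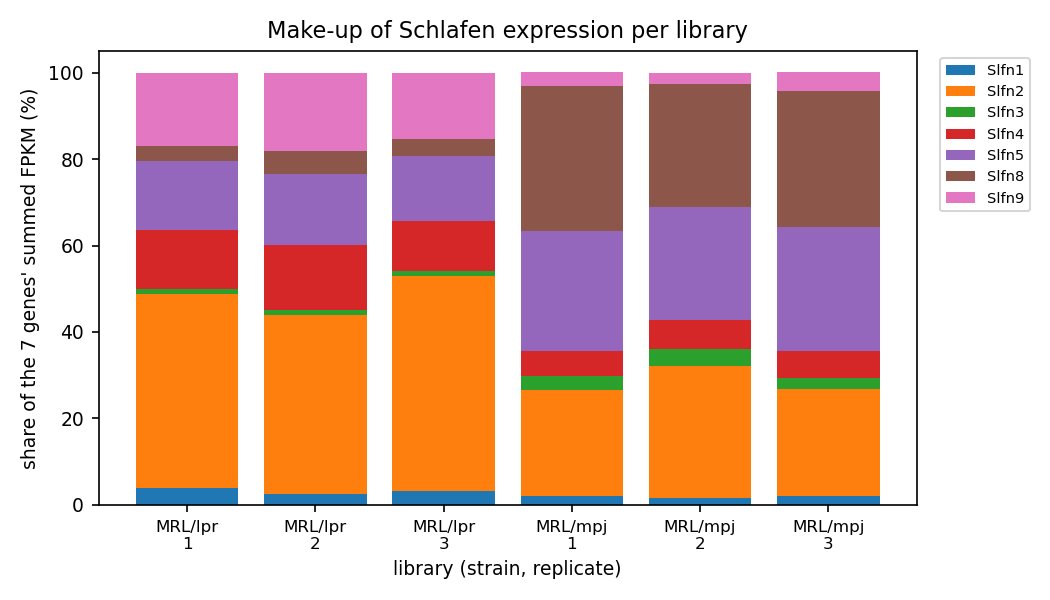
Share of each gene in the summed FPKM of the 7 Schlafen genes, in percent, for each library. Slfn2 took 41.3% to 49.8% in MRL/lpr, and Slfn8 took 28.4% to 33.5% in MRL/mpj and at most 5.37% in MRL/lpr.

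The genes around the cluster were compared to see how far the differences extended along the chromosome. Within 500 kb of the outermost members the table held 60 other genes, of which 29 were tested, and 3 of those lay inside the cluster. Besides Slfn10-ps, 1 gene was called higher and 2 were called lower, while 4.67% of all genes tested were called higher and 3.66% lower. AA465934, a processed transcript beyond Slfn3, had a log2 fold change of 1.44 (adjusted p = 0.0141 by edgeR's quasi-likelihood test). Unc45b, a chaperone of myosin on the other side of the cluster, fell by 1.15, and Mmp28, a secreted metalloprotease, fell by 1.17 on the log2 scale. Over the 26 tested genes outside the cluster the median log2 fold change was 0.14. By the adjusted p alone, 7 of the 29 neighbours were higher and 3 were lower, Slfn10-ps among the former. Among all genes tested these shares were 11.1% and 9.06%. The nearest gene to pass before the cluster besides Unc45b was Nle1, a gene of ribosome assembly, which rose by 0.60 (adjusted p = 0.0195 by edgeR's quasi-likelihood test). Gm20234, which is antisense to Slfn2, had 18 to 47 counts per library and a log2 fold change of 1.09 (adjusted p = 0.162 by edgeR's quasi-likelihood test). Whether strand was used in the counting is not given in the sources used here, so reads of Slfn2 and Gm20234 may not be told apart.

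**Figure D4:**
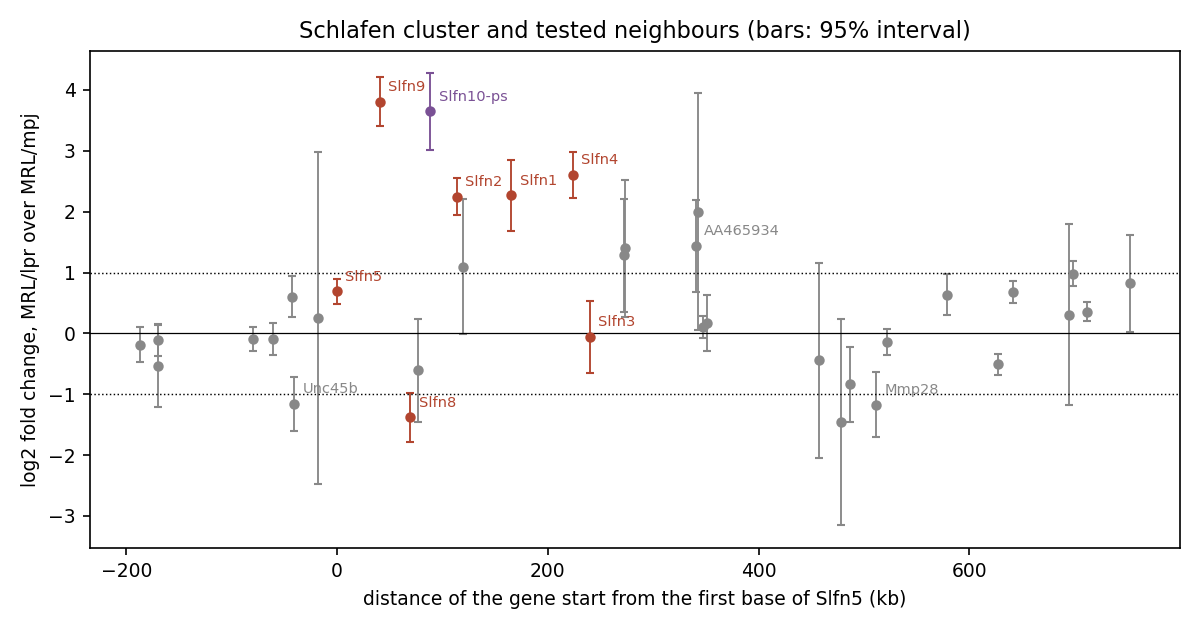
Log2 fold change (MRL/lpr over MRL/mpj) with its 95% interval against the distance of each gene start from the first base of Slfn5, in kb, for the 7 members (red), Slfn10-ps (purple) and the other tested genes within 500 kb (grey). Dotted lines mark a log2 fold change of 1 in each direction. Called genes and all members are named, and Slfn9 at 3.81 and Slfn8 at -1.37 start on neighbouring positions.

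Interferons signal through their receptors and the Janus kinases to STAT and IRF factors, which induce Schlafen genes together with other antiviral genes. Of 16 receptor and signalling genes, 4 were called higher, beside 4.67% of all genes tested. The median log2 fold change of the 16 was 0.35. Among those called were the transcription factor gene Irf7, with a log2 fold change of 2.86, and Usp18, an inhibitor of the receptor, with 2.72. The transcription factor gene Stat2, with 1.21, was also called. By the adjusted p alone, 7 of the 16 were higher and 1 was lower, against 11.1% and 9.06% of all genes tested. The lower gene was the receptor subunit Ifngr1, with a log2 fold change of -0.76 (adjusted p = 5.22e-05 by edgeR's quasi-likelihood test). Jak1 rose by 0.53, Tyk2 by 0.28 and Irf9 by 0.64, while Ifnar1 and Ifnar2 had log2 fold changes of -0.09 and 0.07 and did not pass.

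Of 25 interferon-stimulated effector genes, 19 were called higher, beside 4.67% of all genes tested, and 23 were higher by the adjusted p alone. Their median log2 fold change was 1.52. Ifi44 had the largest value, 5.20, followed by Zbp1 with 4.10 and Ifit3 with 3.30. The log2 fold changes of Slfn9, Slfn4, Slfn1 and Slfn2 lay above that median, and those of Slfn5, Slfn3 and Slfn8 lay below it. The Ifit2 value of 2.50 did not pass (adjusted p = 0.283 by edgeR's quasi-likelihood test), with 10474, 10618 and 293 counts in MRL/lpr and 1312 to 1437 counts in MRL/mpj.

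Genes of the processes that Schlafen proteins act on were read in the same fit. Of 10 genes that cut, repair or protect transfer RNA, 1 was called, the ribonuclease gene Ang, which rose by 1.0107 on the log2 scale (adjusted p = 0.000301 by edgeR's quasi-likelihood test). The median of the 10 was -0.02, and 4.67% of all genes tested were called higher. The call of Ang was lost with scaling by library size only, in the glmTreat test, in the test on FPKM and when replicate 1 of either strain was left out. The ligase gene Rtcb rose by 0.52, and Elac1, which trims the 3′ end of transfer RNA, fell by 0.53 on the log2 scale. Of 16 quiescence factors, 4 were called higher, and 7 were higher by the adjusted p alone, with a median log2 fold change of 0.21, beside 4.67% and 11.1% of all genes tested. The number called was 2 with scaling by library size only, 2 in the test on FPKM and 1 in the glmTreat test. Cdkn1a, an inhibitor of the cell cycle, rose by 1.36, the antiproliferative gene Btg2 by 1.15, Cdkn2c by 1.09 and the transcription factor gene Klf6 by 1.03. The FOXO factor genes Foxo1, Foxo3 and Foxo4 had log2 fold changes of 0.14, 0.12 and -0.17 and did not pass.

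Lymphocytes and other myeloid cells also express Schlafen genes, and markers of some of these cells moved with the strains. Of 12 T cell markers, 9 were called higher, beside 4.67% of all genes tested. The summed level of the 12 was 30.6 to 37.9 CPM in MRL/lpr and 8.96 to 9.48 CPM in MRL/mpj. Cd8b1 had 0 counts in each MRL/mpj library. Of 8 NK cell markers, 6 were tested and 4 were called higher, with summed levels of 12.99 to 14.96 CPM against 3.40 to 4.73 CPM, and Klra8 had 0 counts in all libraries. The 4 were Gzma, Gzmb, Prf1 and Eomes, which cytotoxic T cells also express. The receptor genes Klrb1c, with 23, 0 and 0 counts in MRL/lpr and 75, 16 and 82 counts in MRL/mpj, and Ncr1 did not pass. In 10 monocyte markers the sums were 621.7 to 713.7 CPM against 602 to 626.5 CPM, with Plac8 called higher and Chil3 called lower, and Fn1 alone held 481.1 to 575.7 CPM of these sums. The 11 neutrophil markers summed to 730.2 to 855.6 CPM against 583.6 to 648 CPM. By the adjusted p alone 3 of them were higher, beside 11.1% of all genes tested. The 8 B cell markers summed to 14.6 to 15.4 CPM against 11.6 to 15.2 CPM, and Fcer2a had 0 counts in each MRL/lpr library. The 8 markers of border macrophages summed to 450.2 to 487.4 CPM against 767 to 794.9 CPM, with Cbr2 called lower. Most of that sum was Stab1, at 413.3 to 453.1 CPM against 717.1 to 745.1 CPM. Of the 8 markers 3 were lower by the adjusted p alone, beside 9.06% of all genes tested. Cd163 had a log2 fold change of 0.62 and did not pass. The part of these cells in the Schlafen differences was not tested, and in bulk RNA more cells of a type and more RNA per cell cannot be told apart.

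The members differed in which library of a strain was highest. In MRL/lpr, Slfn4, Slfn5 and Slfn9 were each highest in replicate 2 and lowest in replicate 3 in CPM, whereas Slfn2 was highest in replicate 3 and Slfn1 in replicate 1. That order was not shared in MRL/mpj, where Slfn4 (7.84 CPM) and Slfn5 (49.77 CPM) were highest in replicate 2, and Slfn9 was lowest there (4.70 CPM) and highest in replicate 3 (6.96 CPM). Within MRL/lpr the coefficient of variation of CPM was 28.9% for Slfn8 and 21% for Slfn1, against 1.94% and 4.03% within MRL/mpj. For Slfn2 it was 3.26% in MRL/lpr and 19.9% in MRL/mpj.

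Over the 6 libraries, the genes whose log2 CPM was most like that of a called member, by Pearson's r taken over genes that reached 10 counts in all 6, all had r of at least 0.99579. With 3 libraries a strain, such values mostly describe the difference between the strains and share its libraries. For Slfn9 they were Arhgef11, AK157302 and Ambra1, and for Slfn4 they were Plin2, Ms4a6b and Btg2. The genes most like Slfn1 were Nfil3, the interferon-induced helicase gene Helz2 and Itpkc, and those most like Slfn2 were Gm13123, Chst7 and Tnni3. Slfn8 was closest to Slc35e3, Nmnat2 and Lrrc4, all of which had lower means in MRL/lpr.

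Across 16 other tests, scalings, filters and fits without 1 library, Slfn1, Slfn2, Slfn4 and Slfn9 were called higher in each. Their log2 fold changes ran from 1.93 to 2.38 for Slfn1, from 2.12 to 2.42 for Slfn2, from 2.41 to 2.75 for Slfn4 and from 3.553 to 3.995 for Slfn9. Slfn8 ran from -1.64 to -1.24, the values with replicate 2 and with replicate 1 of MRL/lpr left out, and was called lower in 15 of the 16, the exception being the glmTreat test. Scaled by library size alone, the data gave 766 genes called higher and 932 called lower, against 914 and 716 with TMM, and the median log2 fold change of all genes moved from -0.01 to -0.13, a shift that changed no call among the members.

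**Figure D5:**
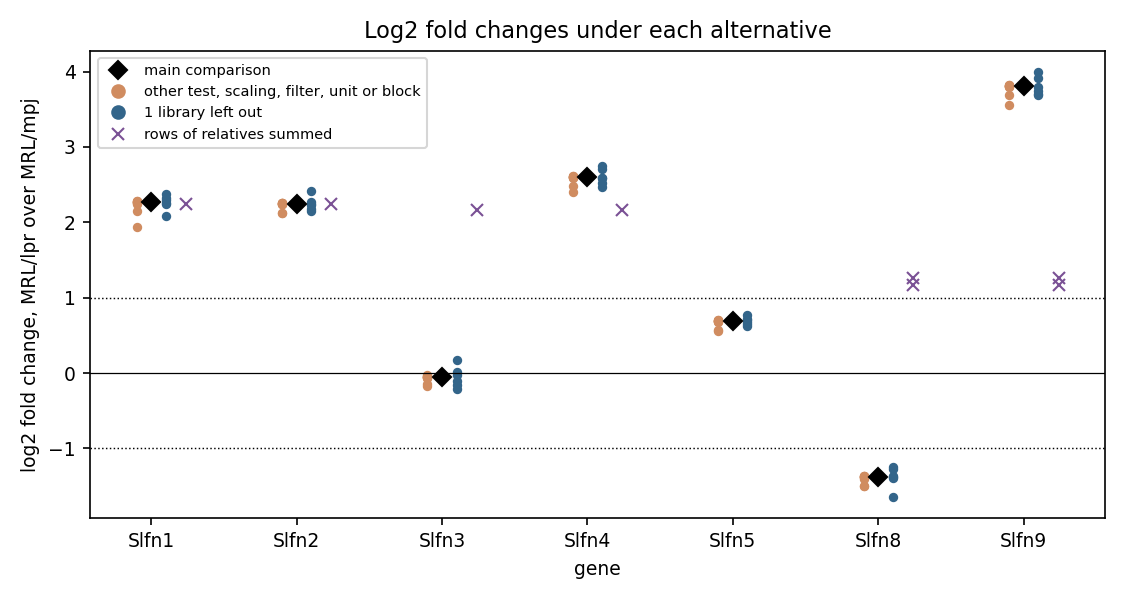
Log2 fold change (MRL/lpr over MRL/mpj) of the 7 Schlafen genes in the main comparison (black), under other tests, scalings, filters, units or the replicate block (orange), with 1 library left out (blue) and with the rows of close relatives summed (purple crosses). Slfn8 changed direction only in the sums with Slfn9, at 1.17, and with Slfn9 and Slfn10-ps, at 1.26.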

How the data were processed

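The comparison used 3 MRL/lpr and 3 MRL/mpj RNA sequencing libraries, made from brain cells selected for CD11b. Per the labels, the authors removed ribosomal RNA and made stranded libraries, and the submitters' processing notes list cutadapt 1.9.3, HISAT2 2.0.4, Cufflinks, Cuffdiff 2.2.1 and GRCm38. The deposited counts are whole numbers for each gene that were not normalized, and the deposited FPKM values were scaled by the authors to gene length and depth. Their counting tool and annotation release are not given in the sources used here. GENCODE M21 (GRCm38) gave symbols and positions for 55141 of 55401 identifiers. Total counts per library ran from 45481609 to 49846634.

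The counts of all genes were fitted with edgeR 4.0.16 in R 4.3.3 (filterByExpr with a minimum count of 10 and total of 15, TMM, robust quasi-likelihood test, no covariates), and Benjamini-Hochberg adjustment covered all 19554 genes tested. Squared differences between replicates of a strain were compared with the variance that sampling of read pairs gives, at an assumed 4 counts per pair. At the median over genes they were 2.32 to 6.85 times as large as sampling alone would give. Each replicate was therefore counted as a separate library, which does not show separate animals. The members, lists and rules were chosen with earlier results of these data known. Named were all members, other Slfn genes, Fas, called neighbours, the leading or few called genes of each list, and the 3 genes most like each called member. Others were chosen after their values were seen. The values of 1 gene of these lists are not reported here.

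Alternatives were DESeq2 1.42.0, RLE or library-size scaling, other filters, dispersions that are not robust, glmTreat, counts divided by 4, limma 3.58.1 on log2(FPKM + 0.1), a replicate block, each library left out, and summed rows of relatives. The sum with Slfn10-ps was chosen after seeing the data. Scripts that fit all genes were first tested on simulated data.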

Additional observations from a re-analysis of the deposited data

How the results depend on the processing

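The numbers of members called higher (4) and lower (1) were the same under each alternative except glmTreat, which tests against the fold-change minimum itself, called 379 genes higher and 237 lower in place of 914 and 716, and left Slfn8 uncalled, with 0 members lower in place of 1 both with and without the fold-change minimum. In that test 12 interferon-stimulated effectors were called higher in place of 19, 2 receptor and signalling genes in place of 4, 1 quiescence factor in place of 4 and 0 genes of transfer RNA cleavage in place of 1, as it asks for a larger change. With scaling by library size only, and in limma on FPKM, where the median over all genes moved from -0.01 to -0.13 and -0.12, 2 quiescence factors and 0 transfer RNA genes were called higher. Without 1 library, the number of transfer RNA genes called ran from 0 to 1. The sign of Slfn3 changed when replicate 1 of MRL/lpr (0.019) or replicate 2 of MRL/mpj (0.17) was left out, in a range from -0.20 to 0.17. Slfn3 had a log2 fold change of 2.16 as a sum with Slfn4, and Slfn8 one of 1.17 as a sum with Slfn9 and 1.26 as a sum with Slfn9 and Slfn10-ps, since the relative held most of the counts that differed.

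Samples with the same replicate number did not deviate together (correlations between -0.0633 and -0.0312 over 19554 genes), so the numbers were not taken as pairs. With a replicate block, 806 genes were called higher and 616 lower, and 4 members were higher and 1 was lower, with log2 fold changes of 3.81 for Slfn9 and -1.41 for Slfn8. Where an arm was left with 2 libraries, the spread was pooled over both strains. If 4 counts stand for 1 read pair, that limits Slfn1 and Slfn3 most.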

Other observations

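Beyond Slfn3 on the same chromosome lies a group of CC chemokine genes, whose products attract leukocytes. In the MRL/lpr libraries Ccl3 rose by 0.98, Ccl6 by 0.68, Ccl5 by 0.64 and Ccl4 by 0.36 on the log2 scale, while Ccl9 fell by 0.51, each with an adjusted p under 0.05 by edgeR's quasi-likelihood test and none past the fold-change minimum. Ccl3 and Ccl4 were abundant, with 20953 to 42305 counts for Ccl3 and 28557 to 37857 counts for Ccl4 in each library. Between Slfn3 and the next protein-coding gene, Slfn14, the processed transcript AI662270 had 622, 204 and 430 counts in MRL/lpr and 239, 204 and 142 counts in MRL/mpj, and the pseudogene Gm11427 had 255, 182 and 83 counts in MRL/lpr and 120, 64 and 35 counts in MRL/mpj. Their log2 fold changes of 1.28 and 1.40 did not pass (adjusted p = 0.0598 and 0.0858 by edgeR's quasi-likelihood test). These genes were chosen after their values were seen.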
